A study of Homo sapiens with 16 samples.

Results

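The translation initiation factor genes described here were the 49 protein-coding genes whose symbols begin with EIF1 to EIF6, out of 58051 gene rows in the deposited table. Symbols were taken from the Ensembl identifiers of the rows, and the kinases (EIF2AK genes) and the eIF4E-binding proteins (EIF4EBP genes) were left out. By symbol the 49 genes fell into 5 EIF1, 11 EIF2, 14 EIF3, 13 EIF4, 5 EIF5 and 1 EIF6 genes. Levels were measured by RNA sequencing in P493-6, an immortalised human B-cell line that carries a MYC gene which doxycycline silences. High-MYC cells were in ordinary medium, and medium-MYC cells were in medium with 0.1 µg/mL doxycycline and 1 µM β-estradiol from 24 h before treatment. Each was then given 100 nM of IMP1088, an inhibitor of the N-myristoyltransferases, or the solvent DMSO as control, for 24 h. Each of the 4 groups had 4 libraries, and the labels do not say that the 4 were separate cultures, so p-values measure the spread between these samples. Because doxycycline and estradiol were added together, and only to medium-MYC cells, effects of the MYC level, of doxycycline and of estradiol cannot be told apart.

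Initiation factors bring the ribosome to the start codon of an mRNA. eIF2 carries the initiator tRNA and is recharged by eIF2B, eIF3 is the large scaffold on the small ribosomal subunit, the eIF4 group binds the cap and unwinds the leader, eIF1 and eIF1A set start codon choice, and eIF5, eIF5B and eIF6 act around joining of the large subunit. MYC is a transcription factor that, with its partner MAX, binds the E-box sequence CACGTG and is known for raising genes of ribosome production and translation in B cells. Several genes carry an EIF symbol by family resemblance and have other main roles, among them EIF4A3, the helicase of the exon junction complex, and EIF5A, which helps elongating ribosomes.

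Because MYC level is 1 of the 2 variables, the E-box was searched for, on both strands (the motif CACGTG reads the same on each), in the 250 bases before the RefSeq start of each gene on GRCh38.p14. No other motif was searched. A window was held for 42 of the 49 genes, and 10 of these (23.8%) contained at least 1 match. The share was 11.5% over the 9888 tested genes with a window, where a gene counted if any window held for it had a match. Counted by window and not by gene, a different measure, it was 6.34% over all 35116 windows. The following stretches of 30 bases, 5′ to 3′ on the gene's strand and with the match in capitals, come from the most strongly lowered gene (EIF4B), from other lowered genes (EIF2B3, EIF4E), from a raised gene (EIF4A3) and from a gene that did not pass the test (EIF1B).
EIF4B: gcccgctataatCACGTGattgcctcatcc
EIF2B3: gacagagggacaCACGTGtcgaatgctcct
EIF4E far site: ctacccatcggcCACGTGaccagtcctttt
EIF4E near site: ggacatatccgtCACGTGgccagaagctgg
EIF4A3: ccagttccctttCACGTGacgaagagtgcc
EIF1B: gcgcgggacggtCACGTGggaggggccgcg
The EIF4B stretch lies at chr12:53006422-53006451 on the plus strand, inside a non-coding exon of longer EIF4B transcripts in GENCODE release 29. Its match begins 22 bases before the RefSeq start. The EIF2B3 stretch lies outside the annotated gene at chr1:44986757-44986786 on the minus strand. The EIF4E stretches, at chr4:98929341-98929370 and chr4:98929188-98929217 on the minus strand, overlap non-coding exons of longer EIF4E transcripts. Their matches begin 225 and 72 bases before the start. The EIF4A3 stretch, at chr17:80147232-80147261 on the minus strand, is outside EIF4A3 and overlaps an exon of AC087741.3. The EIF1B stretch, at chr3:40309641-40309670 on the plus strand, is outside EIF1B and overlaps an exon of its antisense gene EIF1B-AS1. Matches were also present before EIF3F, EIF3K, EIF4G1, EIF4H and EIF5A2. Of the initiation factor genes with a window, a match was present in 7 of the 28 that were lower at medium MYC among controls (25%), in 1 of the 5 that were higher (20%) and in 2 of the 6 tested genes that were not called. Over all tested genes with a window the shares were 14.2% of those lower, 9.88% of those higher and 9.84% of those not called. The match was therefore found in genes of all 3 outcomes, and these shares are descriptions of letters in a window, not of binding.

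The libraries held 8755296 to 13858534 reads, recovered from the deposited values. MYC itself had 31649 ± 2130 normalized counts in high-MYC controls, 47542 ± 505 with the inhibitor, 959 ± 48.7 in medium-MYC controls and 1382 ± 51.2 with the inhibitor (SD, n = 4), so that the high-MYC and medium-MYC labels matched its level. NMT1, the gene of a target of the inhibitor, ranged from 1417 to 1807 over the 16 libraries. It had 1505 ± 27.6 in high-MYC controls and 1729 ± 54.4 in medium-MYC controls. NMT2, the gene of the other N-myristoyltransferase, was low, at 2.79 ± 1.42 in high-MYC controls and 14.6 ± 4.97 in medium-MYC controls. With the inhibitor NMT2 had 2.33 ± 1.40 at high MYC and 21.7 ± 4.94 at medium MYC. The 6 B-cell markers together had 38211 to 40501 normalized counts in high-MYC controls, 32449 to 33704 with the inhibitor, 56803 to 60454 in medium-MYC controls and 51646 to 53239 with the inhibitor. In all libraries the 3 T-cell markers summed to at most 77.9, the 3 monocyte or macrophage markers to at most 83.4 and the 2 erythroid markers to at most 11.5, with HBB at 0. The 2 fibroblast markers summed to 5.59 to 10.5 in high-MYC controls, 4.44 to 19.4 in high-MYC inhibitor libraries, 156 to 176 in medium-MYC controls and 193 to 221 in medium-MYC inhibitor libraries, nearly all of it from COL1A1. Mitochondrial genes took 4.44% ± 0.230 of reads in high-MYC controls and 3.41% ± 0.269 in medium-MYC controls. The part of these marker levels and of the mitochondrial share in the results below was not tested. In a bulk sample, fewer cells of a type and less RNA per cell cannot be told apart, and the values are relative to the other genes of a library.

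The first question was how initiation factor genes differ between the MYC levels. Together the 49 genes took 1.19% ± 0.0159 of reads in high-MYC controls and 0.848% ± 0.0141 in medium-MYC controls, and 1.26% ± 0.0161 and 0.918% ± 0.00614 in the matching inhibitor libraries. Of the 46 genes that passed the filter (16-library mean no lower than 10), 40 differed between medium-MYC and high-MYC controls at an adjusted p under 0.05, 35 lower and 5 higher at medium MYC. EIF1AY, EIF4E1B and EIF4E3 were below the filter. Over all 13765 tested genes the same comparison called 76.2%, with 38.9% higher and 37.3% lower, so calls were split about evenly by direction over all genes and were mostly downward among the initiation factors. The median log2 change, on the log2(value + 1) scale, was -0.52 for the 46 genes and 0.02 for all tested genes. In 40 of the 46 genes the 4 medium-MYC controls did not overlap the 4 high-MYC controls, against 69.2% of all tested genes.

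Among the inhibitor libraries, which share no library with the controls, 41 of 46 genes were called, 35 lower and 6 higher, with a median log2 change of -0.48. The background there was 77.5% called, 39.7% higher and 37.8% lower. The medium-MYC and high-MYC libraries did not overlap in 39 of the 46 genes, against 72.6% of all tested genes. All 35 genes that were lower among controls were also lower among inhibitor libraries and all 5 that were higher were also higher, with no gene called in opposite directions. Over all tested genes, 33.6% were lower in both and 35.3% higher in both.

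**Figure D1:**
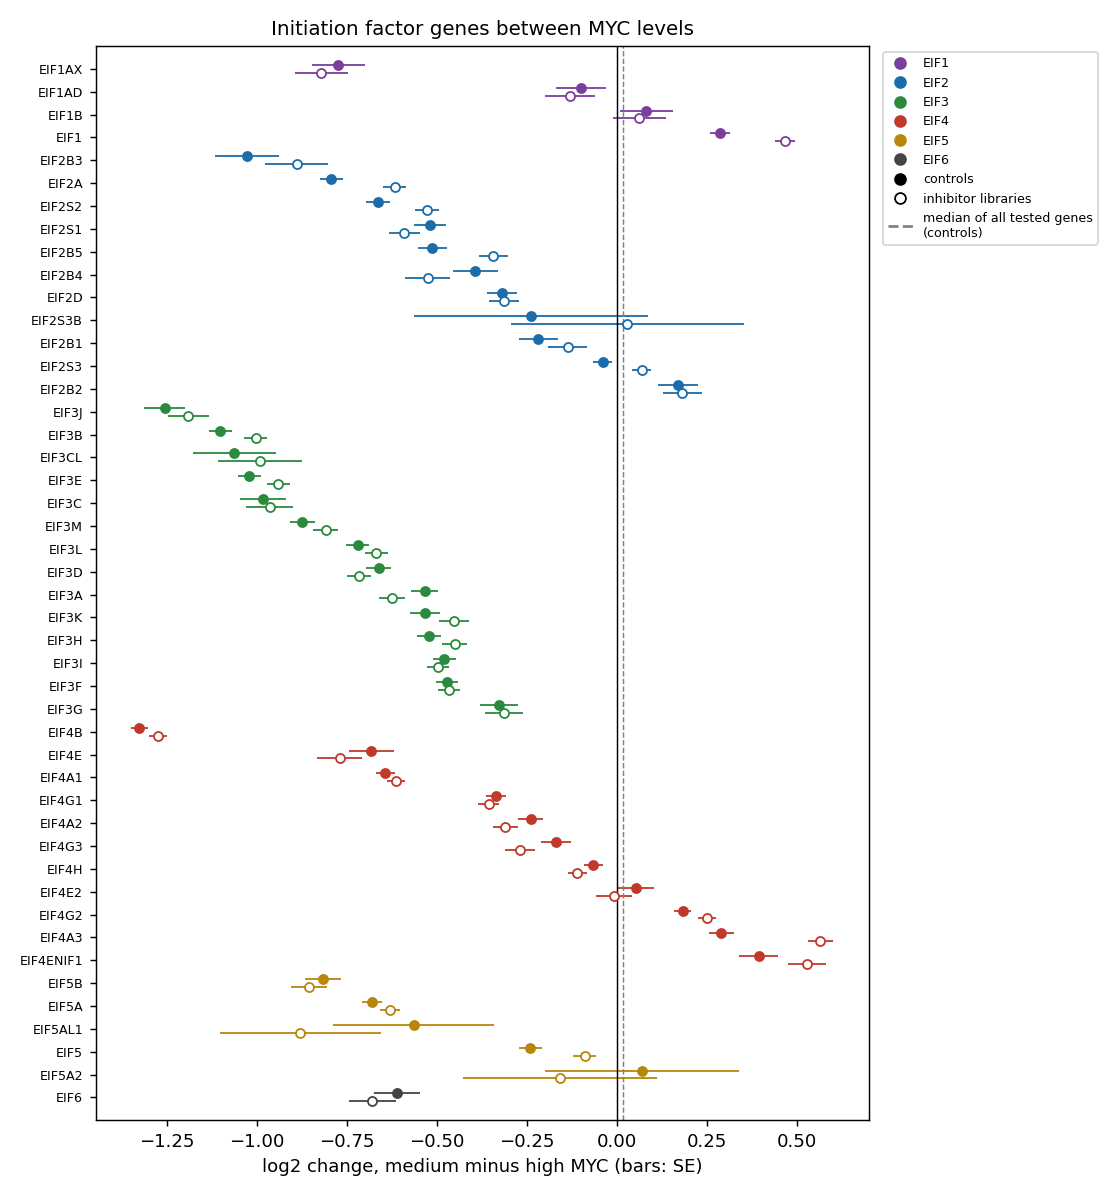
Log2 change of each of the 46 tested initiation factor genes between medium and high MYC (x axis, log2 of normalized count + 1, medium minus high), among controls (filled) and among inhibitor libraries (open), with bars for the standard error of the fit. Colours mark the classes EIF1 to EIF6, and the dashed line is the median of all tested genes among controls. All 14 EIF3 genes lie left of 0 in both sets. In each set 8 genes lie to the right, and of these EIF1, EIF2B2, EIF4A3, EIF4G2 and EIF4ENIF1 were called higher in both sets.

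The eIF3 complex, the scaffold that holds mRNA and initiation factors on the small subunit, fell as a whole set of genes. All 14 EIF3 genes were lower at medium MYC among controls and again among inhibitor libraries, with a median log2 change of -0.69 among controls and a range from -1.26 to -0.33. The 9 genes of the octamer of PCI and MPN subunits had a median of -0.72 and the 5 other genes a median of -0.66. EIF3J, a loosely attached subunit, had 1486, 1543, 1588 and 1451 normalized counts in high-MYC controls and 640.5, 660.1, 557 and 686 in medium-MYC controls. Every medium-MYC library was below every high-MYC library, and the log2 change was -1.26 (SE 0.06, adjusted p = 1.02e-14). EIF3B, a subunit with an RNA recognition motif that lies at the core of the peripheral module, went from 4292, 4044, 4321 and 4248 to 1959, 2015, 2015 and 1889. Its groups also lay apart, with a log2 change of -1.10 (SE 0.03, adjusted p = 2.37e-18). EIF3E, an octamer subunit, had 3913, 3934, 3989.8 and 4069 in high-MYC controls and 1953, 1940.0, 1887 and 2059.8 in medium-MYC controls, a log2 change of -1.02 (SE 0.03, adjusted p = 1.91e-17).

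The smallest falls in the set were those of EIF3G (-0.33), EIF3F (-0.47) and EIF3I (-0.48). EIF3F, an MPN subunit, had 2327, 2224, 2222 and 2174 in high-MYC controls and 1581, 1647, 1631 and 1589 in medium-MYC controls, again without overlap. EIF3A, the largest subunit, had 6268, 6342, 6576 and 6388 against 4573, 4479, 4148 and 4471, a log2 change of -0.53 (SE 0.04). The subunits thus fell by unequal amounts, EIF3J most and EIF3G least. Per kilobase of exon, EIF3F was lowest and EIF3E highest among 13 subunits (EIF3CL left out) in all 4 groups. They had 296 and 2577 normalized counts per kilobase in high-MYC controls and 214 and 1270.1 in medium-MYC controls. The length used was that of all annotated exons of a gene merged, 7548 bases for EIF3F and 1543 for EIF3E. Merged length can exceed that of any transcript, so this ranking depends on the annotation and does not show which subunit RNA was scarcest. The spread of the 13 levels, as an SD of log2 counts per kilobase, was 0.81 in high-MYC controls and 0.80 in medium-MYC controls. The same lengths entered this spread in every group.

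EIF3C and EIF3CL are near-identical copies on chromosome 16, so how reads are divided between them is uncertain. EIF3C had 4416, 4783, 4959.9 and 5410.5 normalized counts in high-MYC controls and 2502, 2088, 2627 and 2706 in medium-MYC controls. EIF3CL had 3588, 3059, 2626 and 2384, and 1309, 1675, 1511 and 1089.8, in the same libraries. In high-MYC controls, the library with the most EIF3CL had the least EIF3C and the library with the least EIF3CL the most. Their sum was steadier, at 7806 ± 172 in high-MYC controls and 3877 ± 176 in medium-MYC controls, a log2 change of -1.01 (exact permutation test, two-sided p = 0.0286, the smallest that 4 against 4 libraries allow).

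The EIF2 class fell less evenly. Of its 11 genes, 8 were lower and 1 higher at medium MYC among controls, with a median log2 change of -0.39. Among the subunits of eIF2, which delivers the initiator tRNA, EIF2S1 (-0.52) and EIF2S2 (-0.66) were lower, while the gene of the third subunit, EIF2S3, had 5824, 5913, 5985 and 6035 normalized counts in high-MYC controls and 5795, 5778, 5828 and 5713 in medium-MYC controls. The EIF2S3 ranges overlapped, and its log2 change was -0.04 (SE 0.03, adjusted p = 0.175). Among inhibitor libraries EIF2S3 was called slightly higher at medium MYC (0.07, SE 0.03, adjusted p = 0.0201), with overlapping groups. That call did not hold without high-MYC inhibitor replicate 4 or medium-MYC inhibitor replicate 1 (adjusted p of 0.0983 and 0.0659). It was also lost with edgeR (adjusted p = 0.0547) and with no mean trend (adjusted p = 0.0523). EIF2S3B, an autosomal gene close to EIF2S3, was near the filter at a mean of 15.6 normalized counts in high-MYC controls and was not called.

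The eIF2B genes, whose 5 products form the exchange factor that reloads eIF2 with GTP, split as 4 lower and 1 higher. EIF2B3, the gene of the gamma subunit, went from 394, 381, 376 and 411 to 220.1, 188, 167 and 192, with no overlap and a log2 change of -1.03 (SE 0.09, adjusted p = 5.95e-10). EIF2B2, the gene of the beta subunit, went the other way, from 265, 281, 255 and 274 to 316, 294, 311 and 289, also with no overlap (0.17, SE 0.06, adjusted p = 0.00842). The other 3 genes of the complex fell, by 0.22 (EIF2B1), 0.39 (EIF2B4) and 0.51 (EIF2B5) on the log2 scale. EIF2A and EIF2D, which can bring initiator tRNA to the ribosome apart from eIF2, were both lower, EIF2A from 1283, 1302, 1365 and 1294 to 779, 757, 728 and 761 (-0.79, SE 0.03, adjusted p = 2.01e-15) and EIF2D with a log2 change of -0.32.

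The EIF4 class held both the deepest fall and most of the rises. Of 11 tested genes, 7 were lower and 3 higher among controls, and the median log2 change was -0.17. EIF4B, a cofactor that stimulates the eIF4A helicases (chromosome 12, positions 53006158 to 53042209), had 11055, 11314, 10992 and 11087 normalized counts in high-MYC controls and 4406, 4327, 4525 and 4468 in medium-MYC controls. The high-MYC and medium-MYC controls were far apart, with a log2 change of -1.33 (SE 0.02, adjusted p = 1.42e-21), the largest of the 46 genes. EIF4H, a relative of EIF4B with the same kind of role, changed by only -0.07 (SE 0.03, adjusted p = 0.0285). Pseudogenes named after EIF4B number 9 in the annotation, and 13 are named after EIF4A1, so reads shared with those copies may be divided differently.

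The helicase genes changed in opposite directions. EIF4A1, the main cap-dependent helicase, had 6934, 7122, 7229 and 6979.6 in high-MYC controls and 4416, 4594, 4611 and 4484 in medium-MYC controls (-0.64, SE 0.03, adjusted p = 1.15e-15). EIF4A2, its close paralogue, went from 3314, 3502, 3789 and 3652 to 3069, 3135, 2860.0 and 3003 (-0.24, SE 0.04, adjusted p = 2.57e-06). Both fell, without overlap between the groups. EIF4A3, the exon junction helicase, rose from 1629.8, 1659.9, 1816 and 1673 to 2036, 2058, 2053 and 2141, again without overlap (0.29, SE 0.04, adjusted p = 2.08e-07). EIF4A1 shares exons with the readthrough gene SENP3-EIF4A1 and with small nucleolar RNA genes, as EIF4A2 does with other small nucleolar RNA genes, so some of their reads cannot be assigned with certainty.

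Of the cap-binding proteins, EIF4E, which recruits capped mRNA, had 1066, 1060.2, 1267 and 1178 in high-MYC controls and 782, 746, 611 and 714 in medium-MYC controls (-0.68, SE 0.06, adjusted p = 2.17e-09). EIF4E2, a relative that is known for holding mRNAs back from translation, had 721, 664, 649 and 692 against 683, 754, 697 and 693, and its groups overlapped (0.05, SE 0.05, adjusted p = 0.328). EIF4ENIF1, the eIF4E transporter that carries eIF4E to the nucleus and to processing bodies, rose from 389, 367, 404 and 393 to 497, 499, 543 and 504 without overlap (0.39, SE 0.05, adjusted p = 8.2e-07). The gene of the cap-binding initiation factor was thus lower while that of its transport partner was higher.

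Among the scaffold genes, EIF4G1, which bridges the cap and the ribosome, had 8838, 8672, 8325 and 8401 in high-MYC controls and 6736, 6564, 7139 and 6712 in medium-MYC controls (-0.33, SE 0.03, adjusted p = 4.37e-10). EIF4G3, a second full-length scaffold, went from 1776, 1549, 1646 and 1631 to 1531, 1470.0, 1436 and 1428 (-0.17, SE 0.04, adjusted p = 0.00103). Both were lower without overlap. EIF4G2, which lacks the region that binds eIF4E, rose from 8246, 8279, 8626 and 8368 to 9799.8, 9419, 9263 and 9586, with every medium-MYC control above every high-MYC control (0.18, SE 0.02, adjusted p = 5.86e-07).

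In the EIF1 class, EIF1, which keeps the scanning ribosome from stopping at poor start codons, rose from 2303, 2329, 2381 and 2249 to 2711, 2818, 2878 and 2895 without overlap (0.29, SE 0.03, adjusted p = 3.92e-09). EIF1AX, the gene of its partner eIF1A, was lower, from 1811 ± 228 to 1058 ± 115 (-0.77, SE 0.07, adjusted p = 3.43e-09). The genes of these partners in start codon selection therefore changed in opposite directions. EIF1B, a paralogue of EIF1, had 267, 287, 301 and 279 in high-MYC controls and 289, 298, 334 and 282 in medium-MYC controls, which overlap (0.08, SE 0.07, adjusted p = 0.308). EIF1AD, a protein with an eIF1A-like domain, also did not pass the test.

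Of the 5 EIF5 genes, 4 were lower and none higher. EIF5B, the GTPase of subunit joining, was lower (-0.82, SE 0.05), and EIF5, the activator of GTP hydrolysis on eIF2, fell from 2409, 2485, 2535 and 2484 to 2163, 2040.2, 2068 and 2123 (-0.24, SE 0.03, adjusted p = 6.05e-07). EIF5A, which carries the modified residue hypusine, went from 7414, 7537, 7282 and 7175 to 4495, 4548, 4757 and 4559 (-0.68, SE 0.03, adjusted p = 2.43e-15). Its paralogue EIF5A2 was barely detected, at 14.3, 27, 24.3 and 12.3 against 22.9, 24, 16.6 and 15.6, and did not pass the test (0.07, SE 0.27, adjusted p = 0.819). The lone EIF6 gene, whose product keeps the large subunit from joining too early, went from 717, 689.5, 694 and 662 to 428, 440.1, 487 and 455 without overlap (-0.61, SE 0.06, adjusted p = 2.17e-08). EIF6 overlaps exons of AL121753.1 on the same strand.

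**Figure D2:**
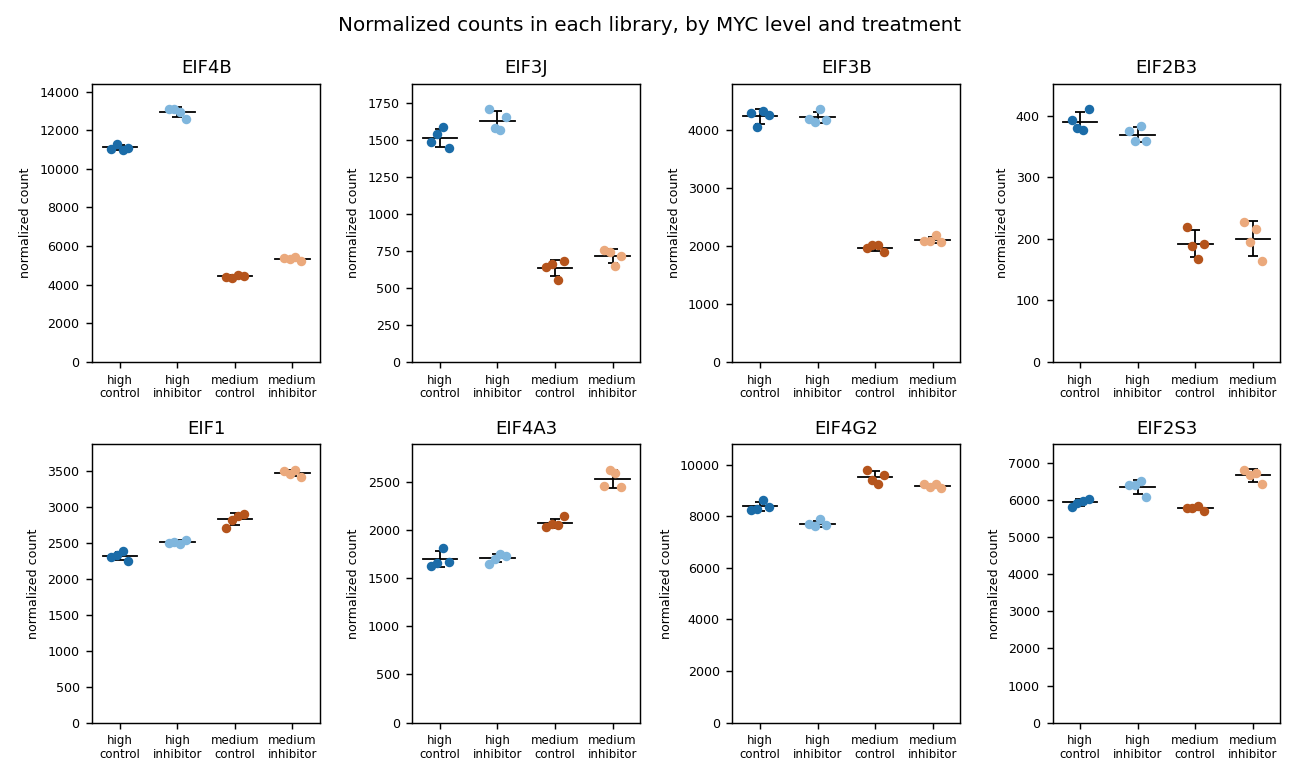
Normalized counts (y axis, starting at 0) of 8 initiation factor genes in each of the 16 libraries, by MYC level and treatment (x axis), with the mean as a line and the SD of 4 libraries as a bar. EIF4B, EIF3J, EIF3B and EIF2B3 are lower in all medium-MYC libraries than in all high-MYC libraries, EIF1, EIF4A3 and EIF4G2 are higher, and EIF2S3 overlaps between the MYC levels.

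The second question was the response to the inhibitor at each MYC level. At high MYC, 13 of the 46 genes were called, 10 higher and 3 lower with the inhibitor, where the background was 26.8% called, 10.5% higher and 16.3% lower. In 14 of the 46 genes the treated libraries did not overlap the controls, against 26.7% of all genes. At medium MYC, 16 were called, 15 higher and 1 lower, where the background was 26.3% called, 11.7% higher and 14.6% lower, and 17 genes did not overlap, against 27.9%. At each level most initiation factor calls were upward, while most calls over all genes were downward. The median log2 change was 0.05 at high MYC and 0.08 at medium MYC, against -0.02 and -0.01 for all tested genes, so the changes were small beside those between MYC levels. With quantile normalization in place of the deposited scaling, 20 genes were called at high MYC, 17 higher and 3 lower.

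At both MYC levels 9 genes rose (EIF1, EIF2A, EIF2S3, EIF3E, EIF3F, EIF3L, EIF4A2, EIF4B and EIF5), and none fell at both. Over all tested genes, 4.76% rose at both levels and 8.38% fell at both. The largest rise at high MYC was that of EIF4A2, the eIF4A paralogue, which had 4367, 4467, 4492 and 4424 normalized counts with the inhibitor at high MYC (0.32, SE 0.04, adjusted p = 6.05e-07). At medium MYC it had 3604, 3584, 3618 and 3518 (0.25, SE 0.04, adjusted p = 1.41e-05). Every treated library lay above every control of the same MYC level. EIF4B rose in the same way, to 13107, 13096, 12964 and 12588 at high MYC (0.22, SE 0.02, adjusted p = 5.03e-07) and to 5391, 5307, 5452 and 5240.3 at medium MYC (0.27, SE 0.02, adjusted p = 1.92e-08). The treated EIF4B values at medium MYC remained below the high-MYC controls.

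EIF2A had 1507, 1494, 1559 and 1472 with the inhibitor at high MYC (0.20, SE 0.03, adjusted p = 7.9e-05) and 983, 986, 974 and 985 at medium MYC (0.38, SE 0.03, adjusted p = 1.48e-08). EIF2S3 had 6407, 6411, 6516 and 6087 (0.10, SE 0.03) and 6821, 6684, 6733 and 6434 (0.21, SE 0.03). EIF2A and EIF2S3 were each higher in all treated libraries than in all controls of the same MYC level. Other genes of initiator tRNA delivery were not called at either level. The log2 changes at high and medium MYC were 0.05 and -0.02 for EIF2S1, -0.06 and 0.08 for EIF2S2, and 0.09 and 0.09 for EIF2D. None of the 5 eIF2B genes was called at high MYC, and EIF2B5 alone was called at medium MYC (0.14, SE 0.04, adjusted p = 0.0174).

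Of the 14 EIF3 genes, 4 were higher and 1 lower at high MYC, and 6 were higher and none lower at medium MYC. EIF3E had 4542, 4422, 4416 and 4255 at high MYC (0.15, SE 0.03, adjusted p = 0.00153) and 2380.2, 2233, 2216 and 2365 at medium MYC (0.23, SE 0.03, adjusted p = 1.32e-05). EIF3F had 2554, 2495, 2597 and 2610.1 (0.20, SE 0.03, adjusted p = 5.9e-05) and 1784, 1922, 1827 and 1893 (0.20, SE 0.03, adjusted p = 3.71e-05). Neither gene's treated libraries overlapped the controls. EIF3A had 6943, 7151, 6994 and 6646 at high MYC (0.12, SE 0.04, adjusted p = 0.0219), a call that was lost without high-MYC control replicate 1 or 2 or high-MYC inhibitor replicate 2 or 3 (adjusted p of 0.0523 to 0.0744). That call was also lost with no mean trend (adjusted p = 0.0688). At medium MYC EIF3A had 4814, 4435, 4221 and 4541, which overlap the controls (0.03, SE 0.04).

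EIF3J at medium MYC had 755, 746, 647 and 716 with the inhibitor, which overlap the controls (0.17, SE 0.06, adjusted p = 0.0293), and 1713, 1587, 1569.9 and 1659 at high MYC, where it was not called. EIF3B had 2076, 2075, 2187 and 2060.0 at medium MYC (0.09, SE 0.03, adjusted p = 0.0313) and 4184, 4131, 4355 and 4169 at high MYC (-0.01, SE 0.03). Both calls at medium MYC depended on single libraries and on the setting of the fit. Each was lost with no filter, with no mean trend and with only the groups compared (adjusted p of 0.0572 to 0.0737). That of EIF3J was lost without medium-MYC control replicate 3 or inhibitor replicate 1, 2 or 4 (adjusted p of 0.0574 to 0.121), and that of EIF3B without medium-MYC control replicate 1 or 4 or inhibitor replicate 3 (0.0628 to 0.116).

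EIF3CL was called lower with the inhibitor at high MYC, at 2146, 2072, 2238 and 2602 (-0.35, SE 0.12, adjusted p = 0.0283), although the groups overlapped. The call was lost in 5 of the 16 fits that left out 1 library (without high-MYC control replicate 1 or 2 or high-MYC inhibitor replicate 1, 2 or 3, adjusted p of 0.0574 to 0.119). It was also lost in 4 of 13 other settings, with DESeq2 among them (adjusted p = 0.0610). EIF3CL had 1011, 1222, 1105 and 1214 at medium MYC, and EIF3C had 5489.8, 5637, 5459 and 5124 at high MYC and 2814, 2745, 2951 and 2619 at medium MYC, none of them called. EIF3C at medium MYC was called higher in 7 of 13 other settings, with edgeR and DESeq2 among them. The sum of the copies was 7692 ± 38.9 with the inhibitor at high MYC and 3920 ± 111 at medium MYC, with log2 changes of -0.02 and 0.02 (exact permutation tests, two-sided p = 0.257 and 0.686). The share of EIF3CL in the sum went from 37.3% ± 6.11 to 29.4% ± 2.97 at high MYC and from 36.0% ± 6.54 to 29.04% ± 2.58 at medium MYC, so the call for EIF3CL did not extend to the sum.

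In the EIF4 class 2 genes were higher and 2 lower at high MYC. The genes that fell were EIF4ENIF1, at 339, 336, 318 and 354 (-0.21, SE 0.05, adjusted p = 0.00632), and EIF4G2, at 7690.1, 7625, 7878 and 7643 (-0.12, SE 0.02, adjusted p = 0.000752), each below all its controls. Both had been higher at medium than at high MYC, and at medium MYC neither was called, with 522, 501, 459 and 465 for EIF4ENIF1 and 9259.8, 9111, 9235 and 9073 for EIF4G2. All 4 of these EIF4G2 values lie below the medium-MYC controls, and EIF4G2 was called lower there with quantile normalization or a GC correction (adjusted p of 0.00109 and 0.00191). At medium MYC 4 EIF4 genes were higher and none lower, and all 4 were helicases or their cofactor. EIF4A3 had 2452, 2626, 2597 and 2451 (0.29, SE 0.04, adjusted p = 2.56e-06). EIF4A1 had 4924, 4766, 4824 and 4640.3 (0.08, SE 0.03, adjusted p = 0.0229), and this call was lost without medium-MYC control replicate 1 or 4 or inhibitor replicate 1 or 3 (0.0540 to 0.0807). It was also lost with no filter, no mean trend or only the groups compared (adjusted p of 0.0561 to 0.0660). EIF4A1 at high MYC had 7299.7, 7253, 7507 and 7250.4, above all controls but not called (0.05, SE 0.03, adjusted p = 0.143), and it was called with equal library totals, quantile normalization or a GC correction (adjusted p of 0.0385, 0.0263 and 0.0450).

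The other scaffold and cap-binding genes were not called with the inhibitor at either MYC level. EIF4G1 had 8233, 8225, 8447 and 8305 at high MYC and 6594, 6523, 6525 and 6306 at medium MYC, and EIF4G3 had 1660.4, 1673, 1651 and 1644, and 1474, 1309, 1316 and 1409. EIF4E had 1192, 1192, 1136 and 1121, and 693, 678, 692 and 655. EIF4E2 had 695, 622, 646 and 678, and 637, 648, 709 and 633. All of these ranges overlapped those of the matching controls.

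EIF1 rose at both levels, to 2496, 2508, 2491 and 2544 at high MYC (0.12, SE 0.03, adjusted p = 0.00295) and to 3497, 3463, 3518 and 3413 at medium MYC (0.30, SE 0.03, adjusted p = 3.66e-08), without overlap. EIF1B had 339, 328, 288 and 272, and 336, 302, 334 and 307, and was not called. EIF5 rose to 2747, 2551, 2635 and 2678 at high MYC (0.10, SE 0.03, adjusted p = 0.0268) and to 2427, 2613, 2431 and 2505 at medium MYC (0.25, SE 0.03, adjusted p = 3.73e-06). The EIF5 call at high MYC was lost without high-MYC control replicate 1 or 2 or high-MYC inhibitor replicate 1 or 4 (0.0504 to 0.0973). It was also lost with no filter, no mean trend or a GC correction (adjusted p of 0.0590, 0.0613 and 0.0597). EIF5A, EIF5A2, EIF5B and EIF6 were not called at either level, although EIF5A at medium MYC was called higher after a GC correction (0.07, adjusted p = 0.0293). EIF5A had 6862, 7049, 7358 and 7243 at high MYC and 4538, 4663, 4739 and 4491 at medium MYC. EIF5A2 had 25.8, 23.3, 24.4 and 13.5, and 15.1, 17.9, 17.8 and 26.2, and EIF6 had 743, 628, 688 and 640.3, and 432, 438, 453 and 363. EIF5AL1, a retrocopy of EIF5A with a mean of 16.1 ± 3.21 in medium-MYC controls and 10.0 ± 2.76 with the inhibitor, was the only gene called lower at medium MYC (-0.64, SE 0.22, adjusted p = 0.0369), and its groups overlapped, and with DESeq2 no initiation factor gene was called lower there. EIF2B2 and EIF2B3 had 283, 297, 288 and 265, and 375, 359, 383 and 359, at high MYC, and 326, 309.9, 323 and 327, and 227, 195, 216 and 163, at medium MYC, with no call.

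**Figure D3:**
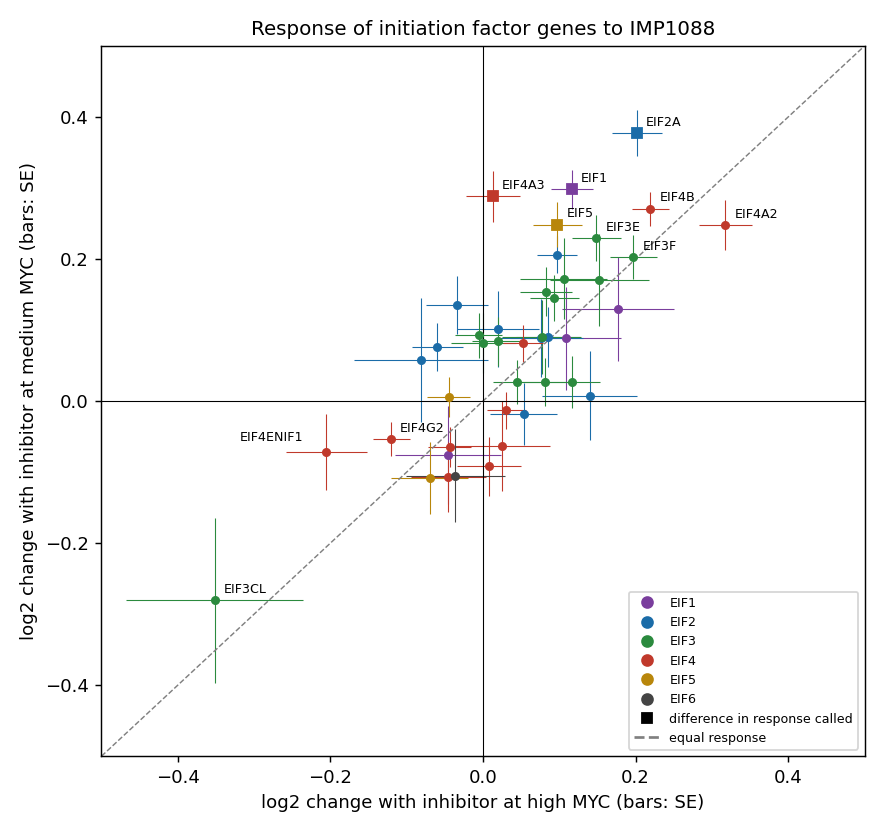
Log2 change with the inhibitor at high MYC (x axis) and at medium MYC (y axis), with bars for the standard error, for the 43 initiation factor genes with a mean of at least 100 normalized counts. Squares mark the 4 genes whose responses differed between the MYC levels (EIF1, EIF2A, EIF4A3 and EIF5), all above the dashed line of equal response.

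The third question was whether the response to the inhibitor differed between the MYC levels, tested as a difference of differences over all 16 libraries. Of the 46 genes, 4 were called and all 4 responded more at medium MYC, where the background was 8.63% called, 3.31% with a higher and 5.33% with a lower response at high MYC. The difference, high minus medium MYC, was -0.28 for EIF4A3 (SE 0.05, adjusted p = 0.00101), whose response was 0.01 at high MYC and 0.29 at medium MYC. It was -0.18 for EIF1 (SE 0.04, adjusted p = 0.00391), -0.18 for EIF2A (SE 0.05, adjusted p = 0.0186) and -0.15 for EIF5 (SE 0.05, adjusted p = 0.0392). EIF4A3 and EIF1 kept their calls in all 16 fits that left out 1 library, with adjusted p of at most 0.00355 and 0.0103. The EIF2A call was lost with DESeq2 (adjusted p = 0.0619), and with quantile normalization EIF2S3 (-0.15, adjusted p = 0.00502) and EIF4B (-0.11, adjusted p = 0.0140) were also called. The EIF5 call was lost with no filter or no mean trend (adjusted p of 0.0858 and 0.0934) and in 11 of the 16 fits that left out 1 library (adjusted p of 0.0514 to 0.0942), that is, in every one except those without replicate 1 of any of the 4 groups or medium-MYC inhibitor replicate 3. No EIF3 gene was called for a differing response.

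Paralogues within a class were then compared as log2 ratios of their values in each library, which are free of gene length when differences between groups are taken. Exact permutation tests (two-sided, labels permuted within the other variable, 4900 arrangements) were made for 7 pairs and both variables, with Benjamini-Hochberg adjustment over the 14 tests. The smallest p this design allows is 0.000408 before adjustment. EIF4E with EIF4E3 was not tested, since EIF4E3 was below the filter. Each effect is the mean of the effects within the levels of the other variable. All 7 ratios differed between the MYC levels. These ratios are built from the single-gene values given above, and 76.2% of all tested genes were called for MYC level among controls. Ratios of other gene pairs were not tested, so this count does not set paralogues apart. The EIF4A1 to EIF4A3 ratio fell by 1.06 at medium MYC over controls and inhibitor libraries together (adjusted p = 0.00114). Its log2 value went from 2.06 ± 0.05 to 1.13 ± 0.05 among controls and from 2.10 ± 0.03 to 0.92 ± 0.06 among inhibitor libraries. Per kilobase, EIF4A1 stood at 4024 and EIF4A3 at 977 normalized counts in high-MYC controls, and at 2578 and 1195 in medium-MYC controls. The exon junction helicase was thus nearer to the initiation helicase at medium MYC.

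The EIF4E to EIF4E2 ratio fell by 0.75 at medium MYC, averaged in the same way (adjusted p = 0.00114). The per-kilobase levels were 94.5 and 130.3 in high-MYC controls and 59.0 and 135 in medium-MYC controls. They rest on merged exon lengths of 12096 bases for EIF4E and 5230 for EIF4E2. Before division by length, the means were 1143 and 681 normalized counts in high-MYC controls and 713 and 707 in medium-MYC controls. Which of the genes stands higher therefore depends on the length used. The EIF4G1 to EIF4G2 ratio fell by 0.56 on that average (adjusted p = 0.00114), with log2 values from 0.03 ± 0.07 to -0.49 ± 0.08 among controls and from 0.11 ± 0.01 to -0.50 ± 0.02 among inhibitor libraries. Per kilobase, EIF4G1 and EIF4G2 stood at 1324 and 1867 in high-MYC controls and at 1050.1 and 2120.5 in medium-MYC controls. In both pairs the gene of the canonical cap-dependent factor was lower at medium MYC relative to its paralogue. The EIF5A to EIF5A2 ratio fell by 0.61 (adjusted p = 0.00714), EIF4A1 to EIF4A2 by 0.35 (adjusted p = 0.00114) and EIF4G1 to EIF4G3 by 0.13 (adjusted p = 0.00714). The EIF1 to EIF1B ratio rose by 0.31 (adjusted p = 0.0019).

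With the inhibitor, averaged over the MYC levels, 1 of the 7 ratios passed the test, that of EIF4A1 to EIF4A2, which fell by 0.22 (adjusted p = 0.00114). Its log2 value went from 0.99 ± 0.07 to 0.72 ± 0.02 at high MYC and from 0.59 ± 0.07 to 0.42 ± 0.02 at medium MYC, with no overlap between treated and control libraries at either level. The adjusted p of the other 6 ratios ranged from 0.102 to 0.732. That average covers unlike values at the MYC levels in 2 pairs, which were not tested level by level. The EIF4A1 to EIF4A3 ratio was 2.06 ± 0.05 and 2.10 ± 0.03 without and with the inhibitor at high MYC, and 1.13 ± 0.05 and 0.92 ± 0.06, without overlap, at medium MYC. The EIF1 to EIF1B ratio was 3.03 ± 0.06 and 3.03 ± 0.16 at high MYC, and 3.23 ± 0.10 and 3.44 ± 0.07, without overlap, at medium MYC.

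**Figure D4:**
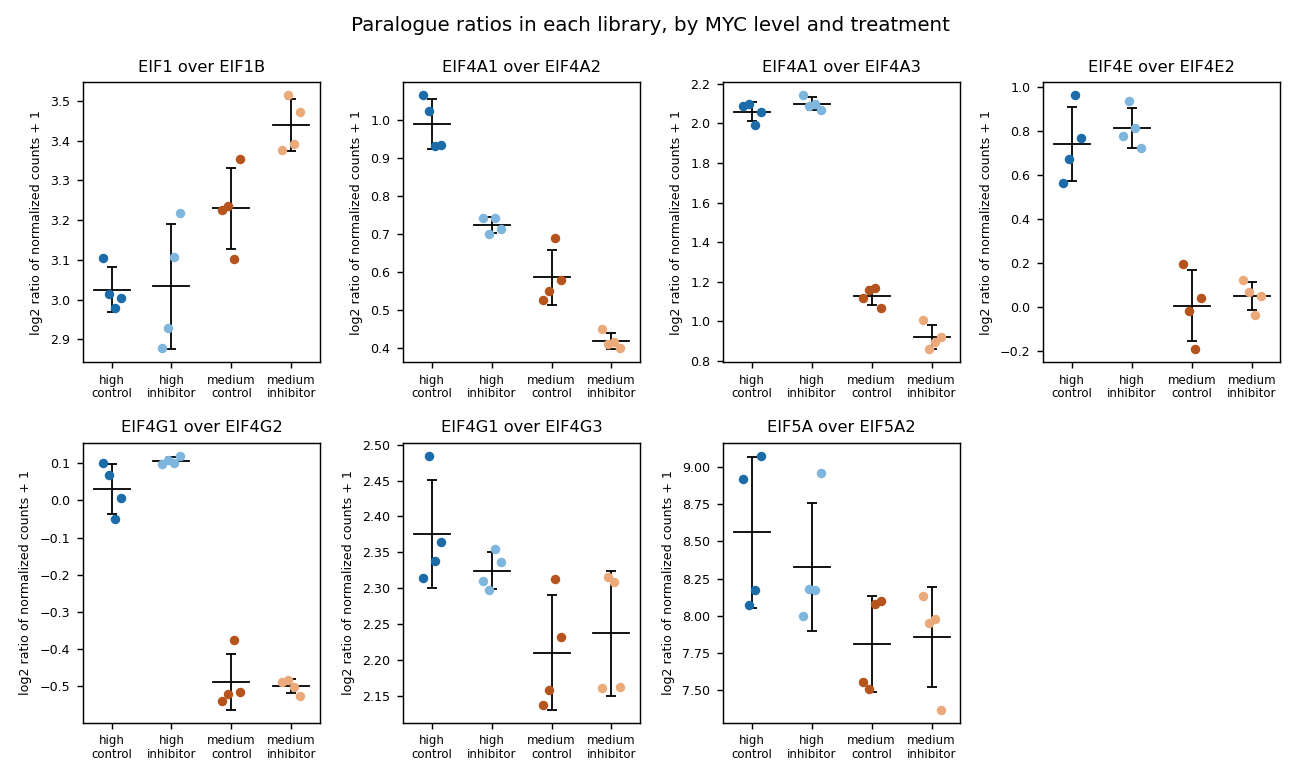
Log2 ratio of normalized counts + 1 between paralogues (y axis, its own scale in each panel) in each of the 16 libraries, by MYC level and treatment (x axis), with the mean as a line and the SD of 4 libraries as a bar. The EIF4A1 to EIF4A3, EIF4E to EIF4E2 and EIF4G1 to EIF4G2 ratios are lower in every medium-MYC library than in every high-MYC library, and the EIF4A1 to EIF4A2 ratio is also lower with the inhibitor at each level.

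Other genes that act with these factors were taken from a list of 39 partners and regulators and a list of 11 elongation and termination factors. Among controls, 11 of the 39 were higher and 21 lower at medium MYC, with a median log2 change of -0.19, and 1 of the 11 was higher and 10 were lower, with a median of -0.58. Over all tested genes 76.2% were called, 38.9% higher and 37.3% lower, with a median of 0.02. BZW2, an eIF5 mimic, went from 321 ± 15.1 to 11.7 ± 2.78 normalized counts (-4.68), and EIF4EBP1, the binding protein that holds eIF4E away from eIF4G, from 461 ± 42.4 to 86.3 ± 11.2 (-2.41). EIF4E and its repressor gene EIF4EBP1 were therefore both lower. EIF4EBP3 had a larger fall than EIF4EBP1 (-2.79), and the next largest after EIF4EBP1 was that of IMPACT (-1.20). MKNK2, the gene of a kinase of eIF4E, went from 2906 ± 222 to 9282 ± 684 (1.68), and the next largest rises were those of PPP1R15A (1.04), DENR (0.64) and MKNK1 (0.48).

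With the inhibitor, 8 partner genes were higher and 4 lower at high MYC, and 11 were higher and 4 lower at medium MYC, against a background of 10.5% higher and 16.3% lower, and of 11.7% higher and 14.6% lower. Of the 11 elongation and termination factors, 5 were higher and 1 lower at high MYC and 5 were higher and 2 lower at medium MYC. The eIF2 kinase genes EIF2AK2 and EIF2AK3 changed in opposite directions. EIF2AK2, the gene of the RNA-activated kinase PKR, had the largest change among partners at high MYC, from 3601 ± 117 to 2899 ± 139 (-0.31, adjusted p = 1.14e-06), and went from 4524 ± 180 to 4018 ± 98.7 at medium MYC (-0.17, adjusted p = 0.00115). The other genes that fell at high MYC were EIF4EBP2 (-0.21), MKNK1 (-0.20) and MTOR (-0.11), and those at medium MYC were MKNK1 (-0.22), DENR (-0.22) and EIF4EBP2 (-0.13). EIF4EBP3 had a change of -0.77 at medium MYC at few counts and did not pass the test (adjusted p = 0.102). EIF2AK3, the gene of the stress kinase PERK that phosphorylates eIF2, went from 688 ± 20.7 to 825 ± 15.98 at high MYC (0.26) and from 493 ± 10.8 to 758 ± 22.3 at medium MYC (0.62). PPP1R15A, whose product brings the phosphatase that reverses that step, went from 200.04 ± 16.8 to 231 ± 7.16 (0.21) and from 412 ± 33.4 to 648 ± 24.4 (0.65). PPP1R15B (0.24) and IMPACT (0.21) were among the largest rises at high MYC. Both EIF2AK3 and PPP1R15A responded more at medium MYC, with differences (high minus medium) of -0.36 (adjusted p = 0.000108) and -0.44 (adjusted p = 0.00368). PDCD4, an inhibitor of eIF4A, rose by 0.17 and 0.41, with a difference of -0.24 (adjusted p = 0.00722). EIF4EBP1 rose at medium MYC from 86.3 ± 11.2 to 150.2 ± 15.5 (0.80) and was not called at high MYC, and the difference was -1.02 (adjusted p = 2.28e-05). For the differing response, 1 of the 39 partners was called higher at high MYC and 6 were called lower, against a background of 3.31% and 5.33%, and 2 of the 11 elongation and termination factors were called lower.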

How the data were processed

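RNA sequencing of 16 libraries, 4 in each of 4 groups, was taken from 1 deposited table of normalized counts (signal per gene, 58051 rows). Per the submitters' processing notes, the tools were STAR 2.5.2a, RSEM 1.2.31 and DESeq2 1.16.1 with the build GRCh38, and their roles are not stated. The annotation and the strand setting of the counting are not given in the sources used here. The deposited signal values were whole multiples of 1 step per library for 100% of values within 0.001 of a whole number, which gave back 8755296 to 13858534 reads per library.

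From these values, log2(value + 1) was tested with limma 3.58.1 (R 4.3.3) over the 13765 genes whose mean was no lower than 10, in 1 fit of 4 group means with a mean trend. P-values were adjusted by Benjamini-Hochberg over all genes tested, and genes with an adjusted p under 0.05 were called. As count tests on the recovered reads, edgeR 4.0.16 called 10555, 10632, 3704, 3857 and 1219 genes for MYC level among controls, MYC level among inhibitor libraries, the inhibitor at high MYC, the inhibitor at medium MYC and the differing response, and DESeq2 1.42.0 was a further alternative. The limma step was tested on simulated data. Names and exons came from GENCODE release 29, and promoter windows from RefSeq on GRCh38.p14, with 7 genes having no window. Levels per kilobase were divided by the merged length of all exons of a gene in the basic annotation, not by the length of 1 transcript.

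Values in every library are given for up to 5 called genes in each direction per comparison with a mean of at least 50, for paralogue pairs and for the highest gene of each class. The members, lists and rules were chosen with earlier results of these data known. Alternatives were other scalings, pseudocounts of 0.1 and 10, other filters, no mean trend, only the groups compared, a replicate block, a GC correction and leaving out each library.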

Additional observations from a re-analysis of the deposited data

Results flagged for a closer look

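In 108 groups of 4 libraries, 1 library stood far from the other 3 in 2 cases, where chance gives about 1 in 20 groups. EIF3B had 2187 normalized counts in medium-MYC inhibitor replicate 3, against 2060.0 to 2076 in the other 3 libraries. EIF4ENIF1 had 543 in medium-MYC control replicate 3, against 497 to 504 in the other 3.

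The response to the inhibitor differed between the MYC levels in 4 of the 46 genes, by the limma test of the difference itself. Over all tested genes 8.63% were called, a similar share, so the count alone does not set the initiation factors apart. The log2 difference, high minus medium MYC, was -0.28 for EIF4A3, -0.18 for EIF1, -0.18 for EIF2A and -0.15 for EIF5. The EIF5 call was lost in 11 of the 16 fits with a library left out and in 4 of 12 other settings.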

How the results depend on the processing

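The counts of initiation factor genes called stayed within 1.5 times in 63 of 64 fits with another setting and in all 80 fits that left out 1 library. The exception was the inhibitor at high MYC with quantile normalization, where 20 genes were called, and the cause was not tested. Without 1 library the counts ranged from 38 to 40 for MYC level among controls, 39 to 42 among inhibitor libraries, 9 to 15 for the inhibitor at high MYC, 14 to 18 at medium MYC and 3 to 5 for the differing response. No result reversed. For single genes with values in every library, 27 calls were lost and 19 gained over the other settings, and 39 were lost and 12 gained when 1 library was left out. EIF5 between MYC levels among inhibitor libraries lost its call without high-MYC or medium-MYC inhibitor replicate 1 (adjusted p of 0.0616 and 0.0505).

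All 7 paralogue ratios kept their call for MYC level, as did EIF4A1 to EIF4A2 for the inhibitor. The EIF4G1 to EIF4G2 ratio rose by 0.13 with the inhibitor after a GC correction (adjusted p = 0.000816, exact permutation test). Leaving out 1 library gave inhibitor effects of 0.078 to 0.135 for EIF1 to EIF1B, -0.0983 to -0.0740 for EIF4A1 to EIF4A3 and 0.019 to 0.0513 for EIF4G1 to EIF4G2. These passed the test without high-MYC inhibitor replicate 1, high-MYC control replicate 3 and medium-MYC control replicate 3, in that order.

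Same-numbered libraries did not deviate together (correlations of -0.15 to 0.24), so the numbers were not taken to pair the samples. With a replicate block the counts were 40, 41, 12, 16 and 3, in the order above, and the differing response of EIF5 had an adjusted p of 0.0706 (0.0514 with a GC correction as well). Changes of low genes such as EIF5A2 and EIF5AL1 are limited by depth.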
